A study of Mus musculus with 12 samples.

Results

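The receptors for interleukin-12 (IL-12) and interleukin-18 (IL-18) are each built from a pair of chains, and their 4 genes were followed through 12 RNA libraries of mouse CD8 T cells. The genes were taken from the deposited count table by symbol. All 4 (Il12rb1, Il12rb2, Il18r1 and Il18rap) were among its 16353 genes and among the 12499 with enough reads to be tested. The cells carried the KB5 transgenic T cell receptor, were of CBA/J background, and were sorted from spleens on that receptor and CD8 to 95% purity by the labels. All treated mice were sampled 12 h after treatment, and each group had 3 libraries.

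Inflamed cells came from mice given C57BL/6 splenocytes as antigen, an anti-CD154 antibody and LPS, the bacterial product lipopolysaccharide. Tolerized cells came from mice given the splenocytes and anti-CD154, which blocks CD40 ligand, a costimulatory signal. Activated cells came from mice given the splenocytes alone, and naive cells came from untreated mice. The splenocyte dose was 10 M (mega) cells into a vein, and the intraperitoneal doses were 0.5 mg of antibody and 100 µg of LPS. No group received LPS without antigen and anti-CD154. The cells share 1 antigen receptor, so they are not a mixed CD8 population, and the labels give no age. By the labels the libraries are independent, but separate mice are not mentioned, so p-values measure the spread between these samples.

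IL-12 and IL-18 are made mainly by myeloid cells and together push T cells and NK cells to make interferon gamma. Il12rb1 encodes the chain shared by the IL-12 and IL-23 receptors, and Il12rb2 the chain particular to IL-12, through which Jak2 and Tyk2 activate Stat4. Il18r1 encodes the chain that binds IL-18, and Il18rap the accessory chain that completes the signalling receptor, which acts through Myd88 and NF-kappaB. In T cells, Il12rb2 is known to be low at rest and induced after antigen stimulation with IL-12 or interferon gamma.

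Il12rb1 lies on chromosome 8 (chr8:70808360-70823542, plus strand) and Il12rb2 on chromosome 6 (chr6:67285986-67376293, minus strand), in RefSeq's annotation of GRCm38.p6. Il18r1 (chr1:40465552-40500854) and Il18rap (chr1:40515362-40551707) are neighbours on the plus strand of chromosome 1, 14507 bases apart. Il12rb2 has the IL-23 receptor gene Il23r 46638 bases beyond its start, and Il18r1 begins 133 bases after the end of Il1rl1, the IL-33 receptor gene. Because these neighbours come up in the results, the upstream bases that lie outside annotated genes are shown, 5′ to 3′ on the gene's strand, from RefSeq (GRCm38.p6). They are chr6:67376294-67376438 for Il12rb2 (minus strand), chr6:67491856-67492105 for Il23r (minus strand), chr1:40465419-40465551 for Il18r1, which is the whole gap to Il1rl1 (plus strand), and chr1:40515112-40515361 for Il18rap (plus strand). RefSeq's promoter table matched 3 of the 4 chains, without Il12rb1. Capitals mark a match to the STAT-binding GAS motif.
Il12rb2: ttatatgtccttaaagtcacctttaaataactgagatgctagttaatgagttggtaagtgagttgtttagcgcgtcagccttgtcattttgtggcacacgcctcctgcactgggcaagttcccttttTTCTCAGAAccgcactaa
Il23r: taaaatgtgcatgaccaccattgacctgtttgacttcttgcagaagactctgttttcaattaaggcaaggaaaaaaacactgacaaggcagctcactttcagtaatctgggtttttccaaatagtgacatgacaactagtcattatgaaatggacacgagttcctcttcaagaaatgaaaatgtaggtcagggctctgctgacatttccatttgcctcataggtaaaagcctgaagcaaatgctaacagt
Il18r1: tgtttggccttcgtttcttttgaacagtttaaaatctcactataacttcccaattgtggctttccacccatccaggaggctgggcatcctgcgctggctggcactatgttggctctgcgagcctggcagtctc
Il18rap: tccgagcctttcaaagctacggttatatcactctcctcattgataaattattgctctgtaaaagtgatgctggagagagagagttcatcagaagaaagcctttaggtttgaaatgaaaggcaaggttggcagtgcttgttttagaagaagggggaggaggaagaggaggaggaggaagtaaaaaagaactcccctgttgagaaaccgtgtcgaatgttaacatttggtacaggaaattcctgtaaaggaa

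The windows of 300 bases around annotated start sites were searched on both strands for the motifs GAS (TTCNNNGAA), AP-1 (TGANTCA), T-box (GGTGTGA) and IRF (GAAA followed, 2 bases on, by GAAA). Il12rb2 held 1 GAS match, TTCTCAGAA, and none of the other 3 motifs. The first base of the match lay 123 bases before the start site of its window (chr6:67376139-67376438). That start site lies inside the gene bounds given above. The bases printed above stop at those bounds instead, so the match stands close to their end. Il18r1 has 3 annotated start sites, and the window of the third held 2 GAS matches. The windows of Il18rap and Il23r, and the other 2 of Il18r1, held no match to any of the 4. Of 32851 promoter windows of this length, 8.3% held a GAS match, 7.81% AP-1, 3.98% T-box and 3.44% IRF. A match describes the letters only.

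Libraries held 29.3 to 84.5 M reads on genes, and levels are counts per M reads (CPM) after scaling. T cell marker genes summed to 3250 to 3516 CPM in inflamed, 2488 to 3125 in tolerized, 2186 to 3369 in activated and 4421 to 5473 in naive libraries. The 7 NK cell markers, which mark another cell with these receptors, summed to at most 0.894 CPM in inflamed, 1.66 in tolerized, 1.31 in activated and 3.70 in naive libraries. Markers of myeloid, B and erythroid cells were uneven between libraries, and most were highest in naive ones, as given beside the results below.

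Both IL-12 receptor chains were highest in inflamed cells, the IL-18 binding chain was highest in naive cells, and the IL-18 accessory chain was low in nearly every library. Il12rb1 stood at 88.5, 85.8 and 72.6 CPM in inflamed cells, 22.8, 21.2 and 21.5 CPM in tolerized cells, 18.5, 22.0 and 19.0 CPM in activated cells, and 7.63, 7.02 and 6.93 CPM in naive cells. The inflamed libraries lay above all others and the naive ones below all others, while tolerized and activated libraries overlapped. Il12rb2 stood at 6.97, 8.26 and 8.54 CPM in inflamed cells, 1.75, 1.45 and 1.48 CPM in tolerized cells, 1.69, 1.31 and 1.27 CPM in activated cells, and 1.78, 2.75 and 2.05 CPM in naive cells. Again the inflamed libraries stood clear of the rest, and the naive libraries lay just above the tolerized and activated ones. In a bulk sample, fewer cells with a transcript and less of it per cell cannot be told apart.

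**Figure D1:**
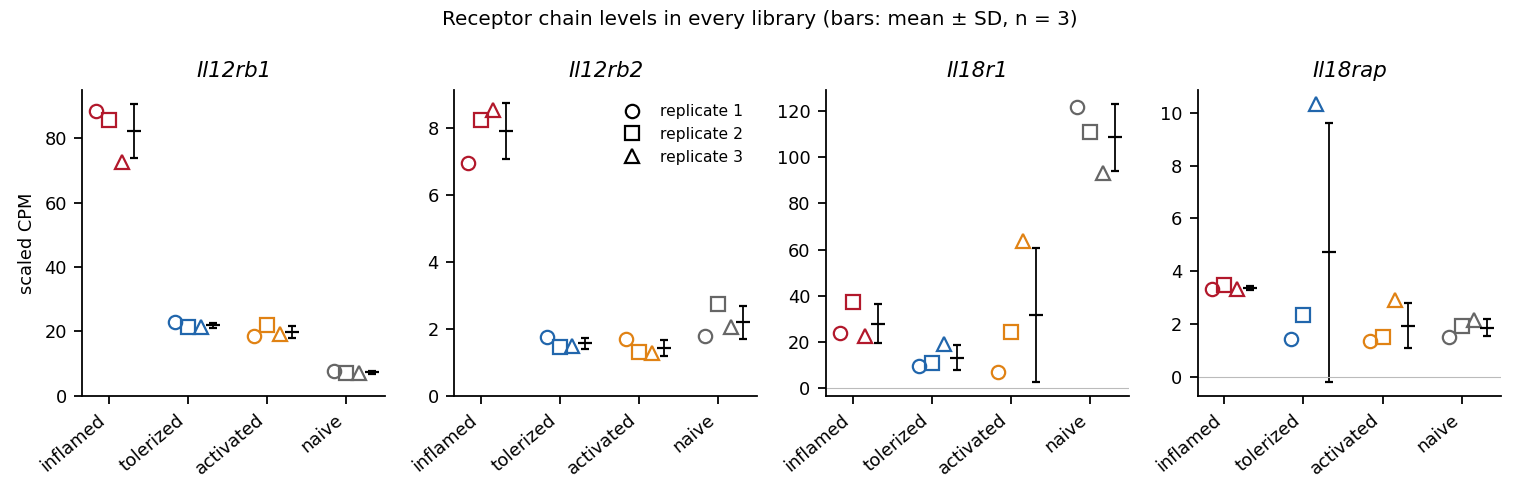
CPM of each receptor chain (linear axis) in every library of inflamed, tolerized, activated and naive cells, with points for libraries and bars for the mean and SD of 3. Il12rb1 and Il12rb2 are highest in the 3 inflamed libraries, Il18r1 is highest in the 3 naive ones, and 1 tolerized library stands high for Il18rap at 10.3 CPM.

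Inflamed against tolerized cells is the comparison that adds LPS to the same antigen and antibody. Il12rb1 averaged 82.3 ± 8.52 CPM in inflamed and 21.8 ± 0.863 CPM in tolerized cells (SD, n = 3 each), a log2 change of 1.86 ± 0.11 (SE, limma adjusted p = 2.11e-05). Il12rb2 averaged 7.92 ± 0.836 CPM in inflamed and 1.56 ± 0.162 CPM in tolerized cells, with a log2 change of 1.80 ± 0.15 (limma adjusted p = 0.000169). Here 2 of the 4 chains were called, both higher, where 2.78% of all tested genes were called (adjusted p under 0.05), 1.66% were called higher and 1.12% lower. By p-value Il12rb1 ranked 3 and Il12rb2 ranked 10 of 12499 genes. Changes are on the scale log2(CPM + 1), which understates low genes, and the ratio of mean CPM was 3.77 for Il12rb1 and 5.08 for Il12rb2. With a pseudocount of 5 the log2 change of Il12rb2 was 0.98, and with limma-voom it was 2.36.

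Il18r1 stood at 23.8, 37.5 and 22.3 CPM in inflamed cells and at 9.54, 10.8 and 19.2 CPM in tolerized cells. The groups did not overlap, but the log2 change of 1.05 ± 0.59 was not called (limma adjusted p = 0.477, 95% interval -0.25 to 2.34). Il18rap stood at 3.33, 3.47 and 3.33 CPM in inflamed cells and at 1.44, 2.34 and 10.3 CPM in tolerized cells. A single tolerized library, replicate 3, stood above the inflamed ones and the other two below, and the log2 change was -0.05 ± 0.45 (limma adjusted p = 0.987). Without that library the change was 0.61 (limma adjusted p = 0.273).

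Inflamed against activated cells gave nearly the same sizes for the IL-12 receptor. Il12rb1 averaged 82.3 ± 8.52 CPM in inflamed and 19.8 ± 1.91 CPM in activated cells, which is 2.0 ± 0.11 on the log2 scale (limma adjusted p = 1.55e-05). For Il12rb2 the means were 7.92 ± 0.836 CPM in inflamed and 1.42 ± 0.233 CPM in activated cells, or 1.88 ± 0.15 on the log2 scale (limma adjusted p = 0.000125). These were the genes ranked 2 and 9 by p-value, in a comparison where 1.92% of genes were called, 1.54% higher and 0.384% lower. Because this comparison and the last share the inflamed libraries, their values are set side by side only. Alternative settings that kept all libraries, a replicate block among them, gave limma adjusted p of at most 0.0116 for Il12rb1 and 0.0388 for Il12rb2.

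Il18r1 did not pass in inflamed against activated cells, with a log2 change of 0.25 ± 0.59 (limma adjusted p = 0.931) and a spread in activated libraries that spanned the inflamed ones. Without activated replicate 1 the change was -0.55, and without activated replicate 3 it was 0.97. Il18rap stood at 3.33, 3.47 and 3.33 CPM in inflamed cells and at 1.37, 1.52 and 2.92 CPM in activated cells. The groups did not overlap, and the log2 change of 0.61 ± 0.45 was not called (limma adjusted p = 0.753).

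**Figure D2:**
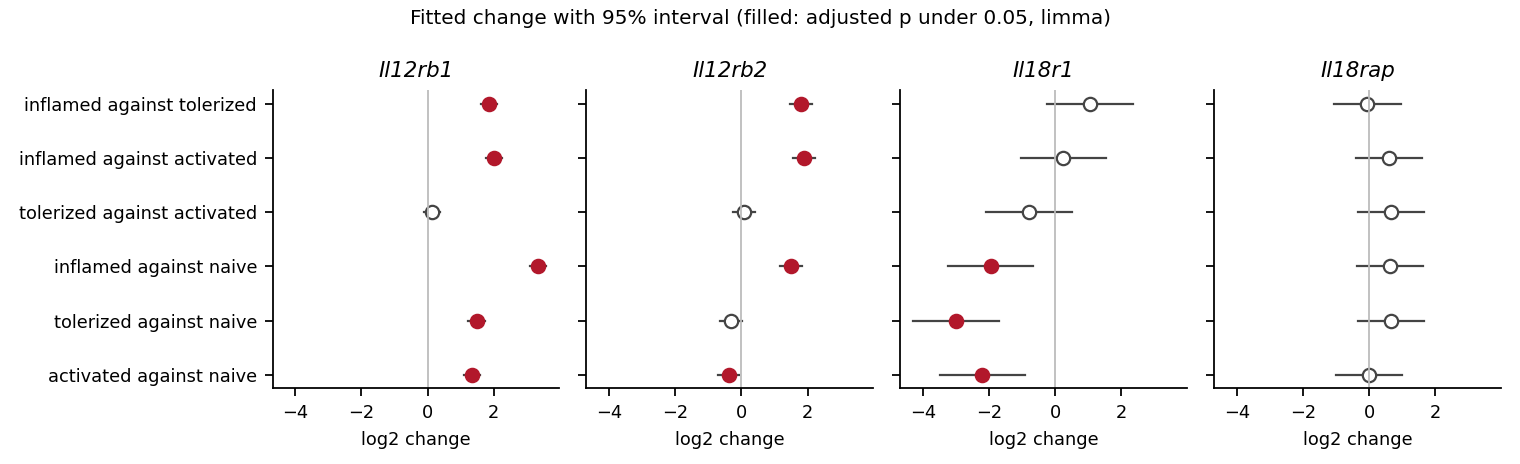
Log2 change of each chain (log2(CPM + 1) scale) with its 95% interval from limma in the 6 comparisons, filled where the adjusted p was under 0.05. The IL-12 receptor chains are higher in inflamed cells against every other group, Il18r1 is lower in every treated group against naive cells, and Il18rap is called in none.

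Markers of other cells differed widely within the inflamed group. The 9 neutrophil markers in the table summed to 239, 111 and 13.4 CPM in inflamed libraries, against 3.0 to 12.0 CPM in tolerized and 2.45 to 16.7 CPM in activated libraries. The 12 monocyte and macrophage markers summed to 587, 200 and 16.1 CPM in inflamed libraries, against 46.3 to 136 CPM in tolerized and 56.2 to 699 CPM in activated libraries. Inflamed replicate 3, the lowest of its group in both sums, held 72.6 CPM of Il12rb1 and 8.54 CPM of Il12rb2, which was the highest Il12rb2 value of all 12 libraries. Across the inflamed libraries Il12rb1 had the order of these sums, and Il12rb2 the opposite order. The part of these cells in the Il12rb1 and Il12rb2 levels was not tested. Leaving out each library in turn gave log2 changes of 1.81 to 1.96 for Il12rb1 and 1.75 to 1.88 for Il12rb2 in inflamed against tolerized cells, all called.

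Tolerized against activated cells, the comparison that adds anti-CD154 to the same antigen, showed no called change in any chain. Of all tested genes, 0% were called with limma (531 had an unadjusted p under 0.05, and limma-voom also called 0). Il12rb1 had a log2 change of 0.13 ± 0.11, with a 95% interval of -0.11 to 0.38, and Il12rb2 one of 0.08 ± 0.15, with an interval of -0.25 to 0.41. The libraries of both groups lay close together for these chains. For Il18r1 the interval was wide, -2.09 to 0.49 around -0.80, since activated libraries held 7.09, 24.4 and 63.6 CPM. A change of this gene in either direction was therefore not detectable unless large.

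Against naive cells most genes moved, so a call says less there. In inflamed cells 72.4% of genes were called (36.9% higher and 35.5% lower), with 3 of the 4 chains among them. In tolerized cells 73.3% were called (37.4% higher and 35.9% lower), with 2 of the 4 chains. In activated cells 70.7% were called (35.3% higher and 35.3% lower), with 3 of the 4 chains. With backgrounds this high nothing is read from those counts, and all 3 comparisons use the same naive libraries. Il12rb1 was higher than in naive cells (7.19 ± 0.385 CPM) in each treated group, by 3.34 ± 0.11 on the log2 scale in inflamed, 1.48 ± 0.11 in tolerized and 1.34 ± 0.11 in activated cells. The largest limma adjusted p of these was 2.12e-06. Il12rb2 differed from this pattern. It was higher in inflamed than in naive cells by 1.49 ± 0.15 (limma adjusted p = 7.23e-06), but in activated cells it averaged 1.42 ± 0.233 CPM, against 2.19 ± 0.499 CPM in naive cells.

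That fall of Il12rb2 in activated cells, -0.39 ± 0.15 (limma adjusted p = 0.035), was small and close to the threshold. It was lost without a filter on low genes, in the 2 groups alone, and on leaving out any one of inflamed 2, activated 2, activated 3, naive 2 and naive 3, with log2 changes of -0.48 to -0.27 over the libraries left out. In tolerized cells the change from naive cells was -0.31 ± 0.15 and did not pass (limma adjusted p = 0.0811). Scaled by library size alone it was -0.52 and passed (limma adjusted p = 0.00667).

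Between naive and treated cells Il18r1 ran opposite to Il12rb1. Naive cells held 122, 111 and 93.2 CPM, and every treated library held less, from 7.09 to 63.6 CPM. The log2 change was -1.95 ± 0.59 in inflamed cells (limma adjusted p = 0.0112), -3.0 ± 0.59 in tolerized cells (0.000898) and -2.20 ± 0.59 in activated cells (0.00621). Leaving out activated replicate 1, the lowest of its group, gave -1.40 in activated cells, and leaving out activated replicate 3 gave -2.93, both called. Macrophage, B cell and erythroid marker sums were also lower in every treated library than in any naive one. Monocyte and macrophage markers summed to 16.1 to 587 CPM in inflamed, 46.3 to 136 in tolerized and 56.2 to 699 in activated libraries, against 729 to 1875 CPM in naive ones. The 8 B cell markers summed to 84.9 to 127 CPM in inflamed, 77.7 to 164 in tolerized and 96.5 to 117 in activated libraries, against 332 to 429 CPM in naive ones. The 6 erythroid markers summed to 10.8 to 67.2 CPM in inflamed, 28.6 to 84.1 in tolerized and 22.0 to 161 in activated libraries, against 537 to 1285 CPM in naive ones. Activated replicate 1 and naive replicate 1 had macrophage sums of 699 and 729 CPM, with 7.09 and 122 CPM of Il18r1. Their B cell sums were 96.5 and 332 CPM, and their erythroid sums 161 and 606 CPM. The part of these cells in the change was not tested.

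The spread of Il18r1 among treated libraries went with that of Il7r, the IL-7 receptor gene typical of resting T cells. Il7r stood at 5.81, 44.4 and 8.17 CPM in inflamed cells, 4.48, 5.07 and 21.8 CPM in tolerized cells, 5.76, 34.6 and 87.9 CPM in activated cells, and 287, 273 and 246 CPM in naive cells. Within each treated group the library with the most Il7r was also the one with the most Il18r1: inflamed 2, tolerized 3 and activated 3. The part of this in the Il18r1 result was not tested. Macrophage marker sums ran in the reverse order of Il18r1 in activated libraries (699, 167 and 56.2 CPM) and tolerized ones (136, 109 and 46.3 CPM). In inflamed libraries, at 587, 200 and 16.1 CPM, they did not. T cell marker sums were highest in the libraries with the most Il18r1: 3516 CPM in inflamed 2, 3125 in tolerized 3 and 3369 in activated 3. The part of these cells in the Il18r1 spread was not tested either.

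**Figure D3:**
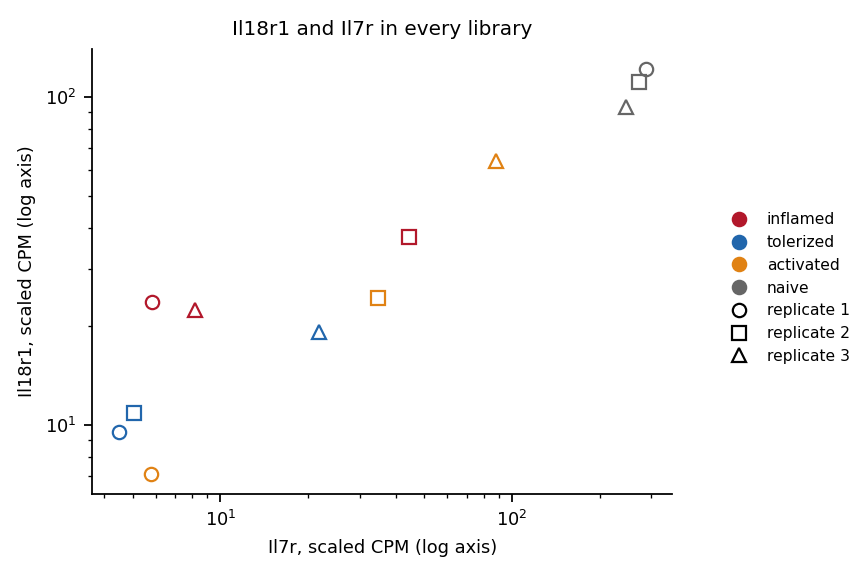
Il18r1 against Il7r in each of the 12 libraries (CPM, log axes), by group and replicate. Naive libraries sit at the upper right with 93.2 to 122 CPM of Il18r1, and the activated libraries spread from 7.09 CPM to 63.6 CPM along the same order of Il7r.

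Il18rap was called in none of the 6 comparisons. Its means were 3.38 ± 0.0784 CPM in inflamed, 4.71 ± 4.89 in tolerized, 1.94 ± 0.858 in activated and 1.86 ± 0.317 in naive cells. Against naive cells the log2 change was 0.62 ± 0.45 in inflamed (limma adjusted p = 0.237), 0.67 ± 0.45 in tolerized (0.202) and 0.01 ± 0.45 in activated cells (0.99). The inflamed libraries lay above all naive ones, and without tolerized replicate 3, which widens the shared spread, the inflamed change of 0.62 was called (limma adjusted p = 0.0202). Without tolerized replicate 1 the tolerized change was 1.12 and was called (0.0391, limma). Tolerized replicate 3 also stood apart in other genes: it held 30.7 CPM of Tbx21, 261 CPM of Gzmb and 35.9 CPM of Itgax, while the other tolerized libraries held at most 7.14, 37.9 and 3.19 CPM. Itgax was on the list of dendritic cell markers. Of the others on it, Flt3, Clec9a, Siglech and Zbtb46 were lowest of the tolerized group in replicate 3, at 0.291, 0.058, 0.146 and 0.116 CPM, and Xcr1 lay between. The part of Tbx21, Gzmb and Itgax in the Il18rap level of tolerized replicate 3 was not tested.

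Between chains, levels are compared per kilobase (kb) of exon. In inflamed cells Il12rb1 led with 28.6 CPM per kb, followed by Il18r1 with 6.70, Il12rb2 with 2.69 and Il18rap with 1.36. In tolerized cells the order was Il12rb1 with 7.59, Il18r1 with 3.17, Il18rap with 1.90 and Il12rb2 with 0.53, and the spread of Il18rap there covered both neighbours in that order. In activated cells Il18r1 with 7.63 ± 6.97 and Il12rb1 with 6.91 ± 0.67 CPM per kb did not differ beyond their spread. Below them Il18rap had 0.781 and Il12rb2 0.483 CPM per kb. In naive cells Il18r1 led with 26.1, then Il12rb1 with 2.50, while Il18rap with 0.75 and Il12rb2 with 0.744 did not differ beyond their spread. The exon length listed for Il18rap, 2481 bases, is shorter than the 4889 bases of a reference transcript, and its level per kb depends on which was counted.

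In both receptors 1 chain was in excess in every library. Il12rb1 exceeded Il12rb2 by a geometric mean of 10.7-fold in inflamed, 14.4-fold in tolerized, 14.4-fold in activated and 3.42-fold in naive cells. Il18r1 exceeded Il18rap by 4.79-fold in inflamed, 2.29-fold in tolerized, 7.28-fold in activated and 35.0-fold in naive cells. The activated libraries stood at 3.09-fold, 9.60-fold and 13.0-fold, and without activated replicate 1 their geometric mean was 11.2-fold. For both receptors the ratios of every treated group lay clear of the naive ones, the Il12rb2 share being lower and the Il18rap share higher. With 3 against 3 libraries the exact 2-sided permutation p was 0.1, the smallest possible (0.15 adjusted over 12 tests), so none of these passed.

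**Figure D4:**
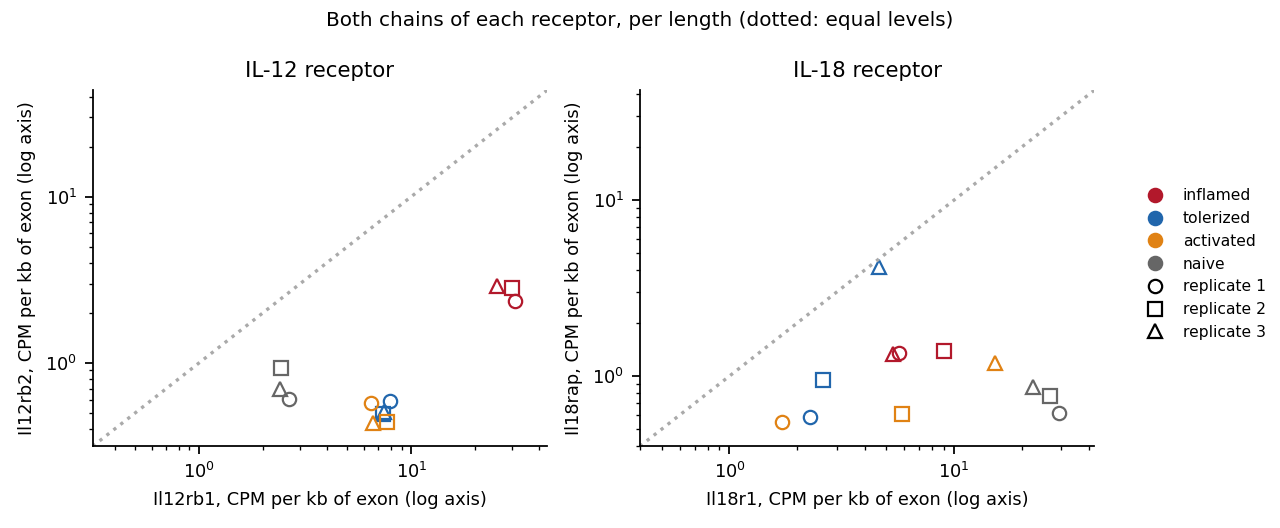
Both chains of the IL-12 receptor (left) and of the IL-18 receptor (right) per library, in CPM per kb of exon on log axes, with a dotted line at equal levels. Inflamed libraries lie up and right of all others for the IL-12 receptor, and naive libraries lie far right and low for the IL-18 receptor.

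Across the 12 libraries the genes most like Il12rb1 by Pearson's r of log2(CPM + 1) were Hic1 (r = 0.99), a transcriptional repressor gene, Tnip3 (0.985), an inhibitor of NF-kappaB signalling, and Spats2 (0.984). Hic1 averaged 54.4 CPM in inflamed, 8.04 in tolerized, 6.66 in activated and 0.486 in naive cells, the same order as Il12rb1. For Il12rb2 they were the IL-23 receptor gene Il23r (0.972) and the cytokine genes Il21 (0.971) and Il10 (0.967), each near 0 outside inflamed cells. Il10 stood at 11.4, 13.4 and 14.4 CPM in inflamed libraries and at no more than 0.495 CPM in any other. Without their inflamed libraries, Il23r, Il21 and Il10 would not have passed the filter on low genes. For Il18r1 they were the exonuclease gene Exd2 (0.992), Wdr78 (0.983) and the transcription factor gene Sp4 (0.982). For Il18rap they were Gm8369 (0.936), Emp1 (0.927) and S100a6 (0.913), whose levels in tolerized replicate 3 were 29.7, 9.20 and 26.7 CPM. These correlations describe libraries that fall into 4 groups.

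Among the chains themselves, Il12rb1 and Il12rb2 had r = 0.98 over the 9 treated libraries and 0.75 over all 12. Within the inflamed group they ran in opposite order, at 88.5, 85.8 and 72.6 CPM of Il12rb1 and 6.97, 8.26 and 8.54 CPM of Il12rb2. The other 5 pairs had r of 0.18 to 0.35 over the treated libraries.

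On the chromosome, Il12rb2 has neighbours that behaved differently on its 2 sides. Il23r, whose product pairs with that of Il12rb1 to form the IL-23 receptor, had 20, 38 and 32 reads in inflamed, 2, 0 and 0 in tolerized, 2, 0 and 5 in activated, and 1, 10 and 0 in naive libraries. Its level was higher in inflamed than in tolerized cells (log2 change 0.74 ± 0.09, limma adjusted p = 0.00162), though at under 1 CPM. Only its inflamed libraries reached the filter's 0.258 CPM, so it was tested only because it was high there. On the other side Serbp1, an mRNA-binding protein gene, runs on the opposite strand and its gene model shares 3317 bases with that of Il12rb2. In GENCODE, another annotation, 819 of the 2998 exon bases of an Il12rb2 transcript were shared with exons of Serbp1. That transcript spans chr6:67292018-67376188, and the GENCODE model of Serbp1 reaches 67297736. RefSeq's Serbp1 ends at 67289302, short of that transcript, so how many counted exon bases the pair shared is not known. Serbp1 averaged 2099.6 CPM in inflamed, 1947 in tolerized, 1815 in activated and 353 CPM in naive cells. Since the sources used here do not say whether counting used strand, reads of the pair cannot be told apart in any shared bases and the low Il12rb2 values are uncertain. Serbp1 did not pass in inflamed against tolerized cells (0.12 ± 0.18, limma adjusted p = 0.861). The part of Serbp1 reads in the Il12rb2 values was not tested.

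Il1rl1, just upstream of Il18r1, stood at 1.71, 1.95 and 1.44 CPM in inflamed, 0.684, 0.513 and 0.553 in tolerized, 0.648, 0.426 and 0.844 in activated, and 0.326, 0.208 and 0.551 CPM in naive cells. It was higher in inflamed than in tolerized cells (0.77 ± 0.14, limma adjusted p = 0.0139), and its naive mean was its lowest, whereas that of Il18r1 was its highest. Il1rl2, an IL-36 receptor gene on the far side of Il1rl1, averaged 3.46 CPM in inflamed, 2.57 in tolerized, 4.19 in activated and 11.6 CPM in naive cells and so had the order of Il18r1. The genes beyond Il18rap, Slc9a4 and Slc9a2, were too low to test. Beside Il12rb1, the neighbours Pik3r2, Mast3 and Arrdc2 were lower than naive in every treated group and were not called in inflamed against tolerized cells, and Kcnn1 was too low to test.

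The rest of the pathway was read from 6 lists. For the ligands, 4 of 6 genes could be tested, and none was called between inflamed and tolerized cells. Il18 itself stood at 7.46, 2.12 and 0.223 CPM in inflamed cells, in the same order of libraries as the macrophage markers, and at 1.56, 1.07 and 0.932 CPM in tolerized cells. Il12b, the shared IL-12 and IL-23 subunit, was too low to test. In inflamed against naive cells 3 of the 4 tested ligand genes were lower and none higher, where 35.5% of all genes were called lower. Il18 stood at 4.65, 14.4 and 16.8 CPM in naive cells, where the macrophage markers summed to 729, 1827 and 1875 CPM, and the part of those cells in its level was not tested.

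Of 9 related receptor chains, 4 were higher in inflamed than in tolerized cells and none lower, where 1.66% of all genes were called higher and 1.12% lower, with a median log2 change of 0.74 against -0.01 over all genes. Those shares are the background of the next 4 lists too. Besides Il23r and Il1rl1 they were Il6st, the shared signalling chain of IL-6 family receptors (0.92 ± 0.17, limma adjusted p = 0.0147), and Il1r1, the IL-1 receptor (1.33 ± 0.29, 0.0343). Il23r was in the tested list only because its inflamed libraries passed the filter on low genes. Il6st averaged 398 ± 13.0 CPM in inflamed and 210 ± 9.13 CPM in tolerized cells, and Il1r1 1.90 and 0.130 CPM. Naive cells were near the inflamed level for both, at 374 ± 42.9 CPM of Il6st and 2.04 ± 1.15 CPM of Il1r1.

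Of 6 genes that carry or restrain the IL-12 signal, 3 were higher in inflamed than in tolerized cells and 1 was lower (median 0.29). The lower one was Stat4, the main transducer of IL-12, at 80.5, 88.2 and 76.3 CPM in inflamed and 162, 144 and 185 CPM in tolerized cells (log2 change -0.99 ± 0.16, limma adjusted p = 0.0069). The groups did not overlap, and naive cells, at 78.8 ± 11.2 CPM, were near the inflamed level. The higher ones were Stat3 (0.85 ± 0.10, limma adjusted p = 0.00106) and the feedback inhibitors Socs1 (2.20 ± 0.15, 6.09e-05) and Socs3 (2.61 ± 0.60, 0.0469). Socs1 averaged 53.8 CPM in inflamed, 11.1 in tolerized, 15.8 in activated and 25.6 CPM in naive cells. Socs3 was highest in naive cells, at 159 CPM, against 40.8 in inflamed, 6.50 in tolerized and 29.7 CPM in activated cells. The kinases Jak2 (-0.32 ± 0.13, limma adjusted p = 0.286) and Tyk2 (-0.28 ± 0.15, 0.452) did not pass.

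Of 20 genes downstream of the IL-18 receptor, none was higher and 1 was lower in inflamed than in tolerized cells, with a median of -0.03. A count of 1 is near the background of 2.78% and is not read as a result about the list. That gene was Nfkb1, an NF-kappaB subunit, at 422 ± 47.0 CPM in inflamed and 704 ± 101 CPM in tolerized cells (-0.74 ± 0.17, limma adjusted p = 0.0472). The adaptor gene Myd88 had a change of 0.34 ± 0.12 (limma adjusted p = 0.212).

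Of 10 genes known to regulate the chains, 2 were higher in inflamed than in tolerized cells and 1 was lower (median 0.49). Tbx21, which encodes T-bet, a factor known to maintain Il12rb2, stood at 163, 117 and 92.6 CPM in inflamed and 7.14, 6.65 and 30.7 CPM in tolerized cells (3.28 ± 0.45, limma adjusted p = 0.00289). Its relative Eomes was lower (-1.04 ± 0.22, 0.033), and Il2ra, the IL-2 receptor alpha chain, was higher (1.04 ± 0.23, 0.0411). Of 13 tested response genes, Il10 (3.59 ± 0.17, limma adjusted p = 5e-06) and the perforin gene Prf1 (0.90 ± 0.19, 0.0289) were higher and Fasl (-2.62 ± 0.30, 0.00101) was lower. Without its inflamed libraries Il10 would not have passed the filter. Ifng, the response gene most tied to both cytokines, did not pass, at 72.0 ± 10.6 CPM in inflamed and 94.4 ± 11.7 CPM in tolerized cells (-0.39 ± 0.30, limma adjusted p = 0.672).

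**Figure D5:**
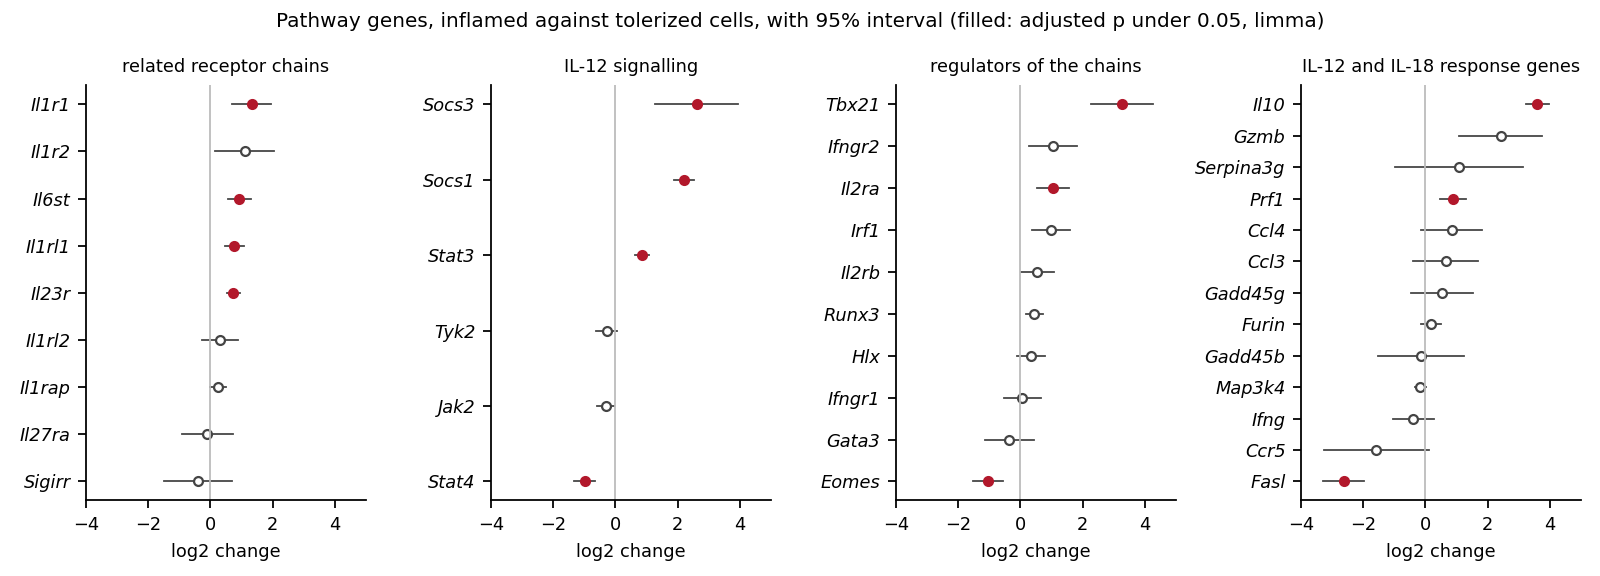
Log2 change of the tested genes of 4 pathway lists in inflamed against tolerized cells (log2(CPM + 1) scale, lines are 95% intervals from limma), filled where the adjusted p was under 0.05. Socs1, Socs3, Tbx21 and Il10 lie far to the right, and Fasl, Eomes and Stat4 lie to the left.

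In inflamed against activated cells, where 1.54% of all genes were called higher and 0.384% lower, the calls were higher in 2 related chains (Il23r and Il1rl1), 2 IL-12 signalling genes (Stat3 and Socs1), no IL-18 signalling gene, 3 regulators (Tbx21, Runx3 and Il2ra), and 3 response genes, and lower in 1 response gene. Stat4 had a change of -0.69 ± 0.16 there and did not pass (limma adjusted p = 0.0603). Here too, Il23r was tested only through its inflamed libraries. Tolerized against activated cells called none in any list.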

How the data were processed

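Messenger RNA libraries of sorted CD8 T cells were sequenced on an Illumina HiSeq, according to the labels' protocols, whose extraction text also mentions embryonic fibroblasts. The submitters' processing notes name TopHat2, bedtools and DESeq and the builds mm10 and GRCm38, without versions or roles. The authors deposited 1 read count per gene and library, not normalized, with each gene's exon length. The counts carry commas as digit separators and read as text. For that format their unit was entered as other, and no negative binomial test was run. The commas were removed before any calculation, so the values themselves were usable as counts. All 12 sample columns were used.

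CPM were computed from the deposited counts with factors from a trimmed mean of M (0.897 to 1.22; 30% of M and 5% of A trimmed). Genes needed 0.258 CPM (10 reads in a library of median size) in 3 libraries and 15 reads in all. Comparisons used limma-trend, with limma 3.58.1 in R 4.3.3, on log2(CPM + 1), 4 group means, 12 libraries in 1 fit, with Benjamini-Hochberg adjustment over 12499 genes in each of 6 comparisons. It was tested on simulated data. Within groups, libraries correlated at 0.961 to 0.994. RefSeq GRCm38.p6 matched 16313 of 16353 genes.

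The members and lists were chosen with earlier results of these data known, and 1 gene of the IL-12 signalling list is not reported here. Named genes were the members, the pathway lists, the 3 most correlated genes and the 2 nearest genes on either side; Il7r, Gzmb and Itgax beside the members were named after their values were seen. Replicate numbers were read as a possible pairing where all 3 same-number deviations correlated over 0.1. This held for tolerized and activated (0.19 to 0.602) and for inflamed and activated cells (0.146 to 0.636), from the data alone, as no label explains the numbers. The reported fits used no pairing. Alternatives were scaling by median of ratios or by library size, limma-voom, testing without a filter, pseudocounts of 0.1 and 5, the 2 groups alone, a replicate block, and each library left out. For the ratios between chains, leaving out a library was chosen after seeing the data.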

Additional observations from a re-analysis of the deposited data

How the results depend on the processing

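Of 504 alternative values for the 24 results on the 4 chains, 478 kept their direction and their side of the threshold, 11 lost the call, 5 gained it and 10 changed sign. Il12rb1 kept its call and direction in inflamed against activated and in all comparisons with naive cells under every setting run. In inflamed against activated cells, settings that kept all libraries gave limma adjusted p of at most 0.0116 for Il12rb1 and 0.0388 for Il12rb2. The Il12rb2 change in activated against naive cells, -0.39, lost its call with no filter, with the 2 groups alone, with the replicate block and with both (adjusted p = 0.055 to 0.143, limma), and leaving out 1 library gave -0.48 to -0.27. With the replicate block in the 2 groups alone, inflamed against tolerized cells kept 1.86 for Il12rb1 and 1.80 for Il12rb2 without a call (adjusted p = 0.0766 and 0.092, limma), and 0 genes were called (1396 at an unadjusted p under 0.05). Same-number correlations in those groups were -0.167 to 0.273, so they did not meet the rule for a pairing, and the cause was not tested. There 2 of 6 libraries were closest to their own number. That was also 2 in inflamed against activated cells, which met the rule, and 5 in tolerized against activated cells. Il12rb2 in tolerized against naive cells was called with library-size scaling at -0.52. Il18rap in inflamed against naive cells, 0.62, was called in the 2 groups alone with and without the replicate block, with 0.53 to 0.69 on leaving out 1 library, and in tolerized against naive cells it ranged from 0.0053 to 1.12. The replicate block changed no other call of the chains.

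Sign changes concerned values that were never called. Il18rap in activated against naive cells was -0.026 with median-of-ratios scaling, -0.17 with library-size scaling, -0.0092 with a pseudocount of 0.1 and -0.22 to 0.16 on leaving out 1 library. In tolerized against activated cells it was -0.0011 to 1.10, and in inflamed against tolerized cells 0.013 with limma-voom, 0.031 with a pseudocount of 0.1 and -0.49 to 0.61 on leaving out 1 library. Il18r1 in inflamed against activated cells ranged from -0.55 to 0.97.

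Counts over all genes depended on the libraries in the fit. Inflamed against tolerized cells had 148 called genes in place of 348 in the 2 groups alone, and 157 to 540 on leaving out 1 library (moved by over 1.5 times without inflamed 1, inflamed 2, tolerized 1 or tolerized 2). Inflamed against activated cells had 228 with the replicate block in place of 240, 99 in the 2 groups alone, 67 in the 2 groups alone with the replicate block, and 107 to 328 on leaving out 1 library (likewise without inflamed 1, inflamed 2 or activated 2). Tolerized against activated cells had 0 to 60, the 60 without tolerized replicate 1. Library-size scaling moved the median of all genes to -0.26, -0.25 and -0.27 in activated, tolerized and inflamed against naive cells, with 3593 higher and 5594 lower calls in activated cells in place of 4413 and 4418, 3736 and 5710 in tolerized cells in place of 4673 and 4488, and 3607 and 5744 in inflamed cells in place of 4614 and 4436. Il12rb2 and Il18rap rest on few reads, 46 to 424 and 38 to 355 per library, which limits their precision.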
